A study of Mus musculus with 48 samples.

Results

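Liver elements gained after birth are genome regions that carried the acetylated histone mark H3K27ac in liver at P7, P21 and P56, but in no fetal liver library and in no forebrain or heart library. Chromatin immunoprecipitation and sequencing gave 24 H3K27ac peak lists covering 3 tissues (liver, heart, forebrain) and 7 stages of the CD-1 mouse, an outbred laboratory stock. Peaks that overlapped by 1 bp or more across these lists were merged into 86181 elements. The members were chosen by peak presence: they are the 1094 elements with a peak in liver P7, P21 and P56, none in liver E11.5, E14.5 or E17.5, and none in the 17 forebrain and heart lists, with liver P0 left free. Their values in the 23 lists that the rule used are therefore a description. All groups were whole tissue of CD-1 mice, for which the labels give no genotype or treatment. The stages were E11.5, E14.5, E17.5 (days of gestation), then P0, P7, P21, P56 (days after birth). Tissue was a pool of several embryos or mice at each stage apart from P56. Every liver stage was represented by 1 H3K27ac library and 1 input library, the input being sonicated DNA taken before the precipitation. Libraries of each kind were doubled, as replicates 1 and 2, in heart at E11.5 and in forebrain at E11.5 and P56 alone, and nothing in the labels says that replicates came from separate animals.

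Acetylation of lysine 27 on histone H3 marks nucleosomes beside active enhancers and promoters, and its gain or loss at an enhancer usually accompanies a change in that enhancer's use. In the fetus the liver is the main site of blood formation, and its hepatocytes are immature. After birth blood formation leaves the liver. Hepatocytes then take on glucose production, the burning of milk fat, bile acid synthesis and detoxification, and many of these functions change again at weaning. The comparison asks which liver regions were acetylated through postnatal life without a peak in the fetal organ or in the other tissues sampled.

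Depth in liver H3K27ac libraries ran from 4108135 uniquely mapped reads, at P0, to 21429854, at P21. Their lists held 12474 to 24270 peaks at the fetal stages, 19523 at P0 and 27179 to 35535 from P7 to P56. The authors' own peak counts were higher for some lists: 27327 against 24270 listed at E17.5, 24360 against 19523 at P0 and 32312 against 27179 at P21. The cause of the shorter lists was not tested, and it limits what absence of a peak can show. The heart P21 pair stood apart. Its H3K27ac list held 7376 peaks, where the authors' own count was 23852. Its input list held 23762, against 17 to 865 in the other input lists. The Jaccard index (elements shared divided by elements in either list) of that input list was 0.685 with liver P21, 0.618 with liver P56 and 0.594 with liver P7. It was 0.378 to 0.437 with the heart lists other than P21, and 0.0704 with the heart P21 H3K27ac list. It entered the rule nowhere. Its label was kept, but whether that label and that of its H3K27ac partner are right was not tested, and every value below that rests on the heart P21 pair has this limit. Leaving the heart P21 H3K27ac list out of the rule gave the same number of members, 1094.

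Members were a small part of the acetylated landscape of postnatal liver. A peak at P7, P21 and P56 was found in 20130 elements, and 15828 of them (78.6%) also had a peak in a fetal liver list. Of the 4302 without a fetal peak, 1641 were marked in both heart and forebrain, 1289 in heart but not forebrain, 278 in forebrain but not heart, and 1094 in neither. Most of the postnatal liver set had therefore been marked before birth in liver or was marked in another tissue at some stage. The same rule with the tissues exchanged gave 441 heart-only and 305 forebrain-only elements gained after birth, and the rule with the stages exchanged gave 232 liver-only elements lost after birth. These numbers depend on the lengths of the lists, which differed between tissues.

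The late fetal stage divided the liver-only elements. Among the 2417 elements marked at P7, P21 and P56 and in no forebrain or heart list, 1284 (53.1%) had a peak at E17.5, 401 (16.6%) at E11.5 and 101 (4.18%) at E14.5. Over all elements the shares were 25.4%, 20.6% and 13.3%, with the stages in the same order. The largest group, 932, had peaks at P7, P21 and P56 alone. A further 162 had a P0 peak as well, and these 2 groups make up the members. The next largest groups were kept out by E17.5: 536 had peaks at E17.5, P0, P7, P21 and P56, and 373 at E17.5, P7, P21 and P56 but not P0. The E14.5 list was the shortest of liver, with 12474 peaks, against 20269 at E11.5 and 24270 at E17.5.

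**Figure D1:**
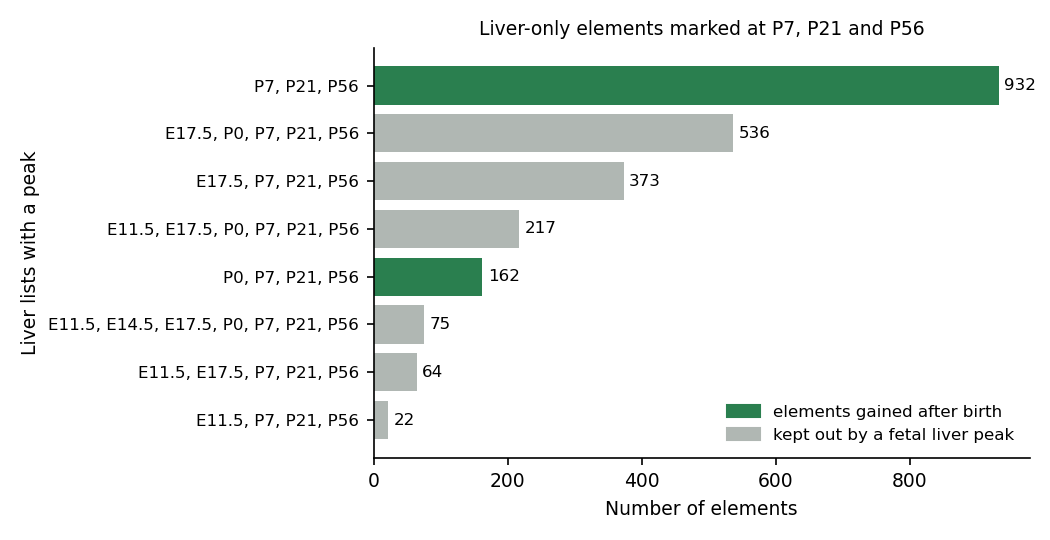
Number of elements (horizontal axis) for the 8 most frequent combinations of liver stages (vertical axis) among elements marked at P7, P21 and P56 with no heart or forebrain peak. Green bars are the elements gained after birth, 932 without and 162 with a P0 peak; grey bars, led by 536 and 373 elements, had a fetal liver peak.

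An element is made of overlapping peaks and a member may hold only liver peaks of P0 and later, so overlap between the stages follows largely from the rule and is given as a description. The best peaks of P7, P21 and P56 shared at least 1 bp in 1084 of 1094 members (99.1%), and 1067 members (97.5%) had a single peak in each of the 3 lists. The part common to the 3 peaks had a median length of 1944.5 bp, and the midpoints of the 3 peaks spanned a median of 270 bp. Their median width was 3204 bp (5th to 95th percentile 1996 to 7901), against 6008.5 bp for all elements marked at P7, P21 and P56 and 2956 bp for all elements. With each list limited to its best 12474 peaks, the length of the shortest liver list, the 418 members then chosen had a median width of 6326.5 bp, against 4635 bp for all elements. Heart-only elements gained after birth had a median of 4038 bp and forebrain-only ones 4259 bp.

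Members ranked low to middling in the lists. Ranks are the authors' own order of peaks within 1 list, given here as a percentile in which 100 is the best peak, and are comparable only within a list. The median percentile of members was 36.7 in the P7 list, 34.0 in the P21 list and 45.8 in the P56 list. Elements marked at P7, P21 and P56 that also had a fetal liver peak had medians of 75.3, 68.6 and 70.9 in the same lists. Only 107 members (9.78%) lay above percentile 50 in all 3 lists, 19 (1.74%) lay above percentile 90 in any, and 261 (23.9%) lay below percentile 10 in at least 1. Across members, the percentiles of P21 and P56 had a Spearman rho of 0.683, those of P7 and P21 0.380, and those of P7 and P56 0.288 (n = 1094 elements, which share libraries, so no p is given). The corresponding values over all 20130 elements marked at the 3 stages were 0.904, 0.847 and 0.761.

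**Figure D2:**
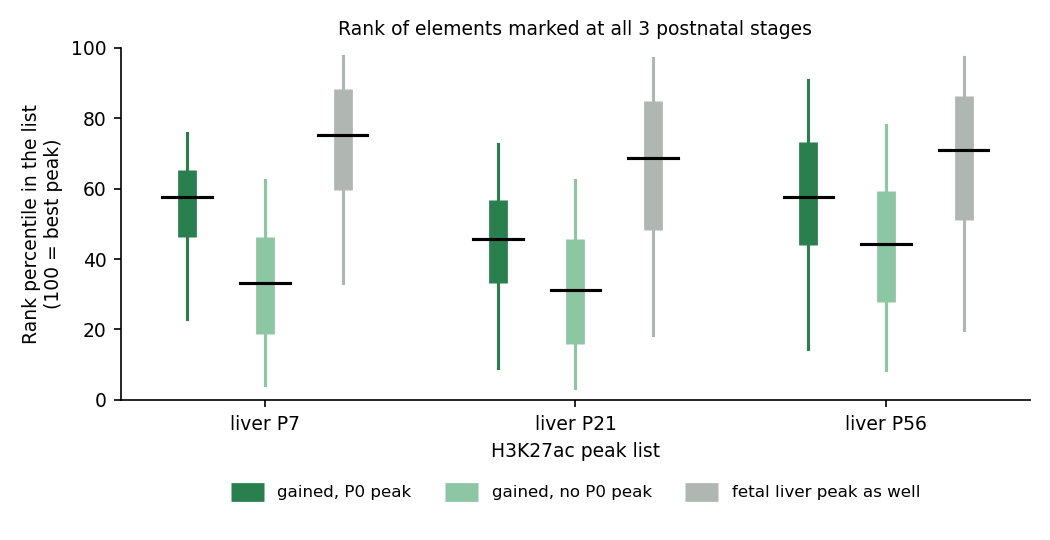
Rank percentile (vertical axis, 100 for the best peak of a list) in the liver P7, P21 and P56 lists, with members split by a P0 peak and set beside elements that had a fetal liver peak as well. Black lines are medians, thick bars the 25th to 75th and thin lines the 5th to 95th percentiles; medians of members without a P0 peak were 33.1, 31.3 and 44.3.

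The best ranked members were mostly wide at P56 and marked by P0. Among all elements above percentile 75, a liver P0 peak was found in 96.7%, 94.8% and 89.7% by P7, P21 and P56 rank. Widths of other well ranked elements are not given here, so neither trait is shown to be particular to members. Coordinates are 1-based positions of the mouse build mm9, and no gene is assigned to them because the gene tables used here belong to another build. The member with the highest mean percentile lay on chromosome 2 from 172946964 to 172955773. It had percentiles of 84.3 at P7, 90.2 at P21 and 99.8 at P56, with peaks 5855, 8761 and 8760 bp wide, and a P0 peak at percentile 71.7. A member on chromosome 8 from 126674109 to 126680403 followed, with 85.2, 87.3 and 96.2 at the 3 stages and peaks of 3582, 4175 and 6105 bp. Both stood high in every liver list from P7 on, while having no peak in any fetal list.

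The member on chromosome 5 from 104398654 to 104411744 had percentiles of 82.4, 83.7 and 90.8, and its P0 peak of 4549 bp compared with 9851, 10417 and 12881 bp at P7, P21 and P56. The member on chromosome 8 from 12709664 to 12723004 had percentiles of 64.0, 86.9 and 96.2. Its peak was 1718 bp wide at P0 and 2600 bp at P7, against 13184 bp at P21 and 12938 bp at P56. At this site the broad domain was listed at P21 and P56, and a narrow peak at P0 and P7. A similar order of widths was seen on chromosome 10 from 110633919 to 110646031, which had no P0 peak and peaks of 2958, 11079 and 12113 bp at P7, P21 and P56, with percentiles of 62.9, 83.5 and 89.5. On chromosome 7 from 91343203 to 91352193 the peaks were 3149, 7805 and 8991 bp wide, with percentiles of 71.8, 74.5 and 95.2.

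The rest of the leading 10 had P56 percentiles of 86.0 to 94.7. On chromosome 18, the member from 74246817 to 74251492 had a P56 percentile of 94.0. On chromosome 19, that from 56350615 to 56354446 had 90.9, with a P0 peak at 8.98. On chromosome 8, that from 118874744 to 118880694 had 94.7, and on chromosome 4, that from 106970546 to 106981014 had 86.0. Of the 10, the chromosome 10 element alone had no P0 peak. Read depth differed between the libraries, and its part in these widths was not tested.

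The 5 widest members included the chromosome 8 element at 12709664 and the chromosome 5 element, both described above with the leading members. The widest, on chromosome 2 from 164829884 to 164848305, spanned 18422 bp as 1 peak at P56 and was listed as 3 separate peaks at P7. Another, on chromosome 15 from 6386954 to 6401401, spanned 14448 bp, and that on chromosome 18 from 12704377 to 12717712 spanned 13336 bp, each with 2 peaks at P7 and 1 at P21 and P56. None of these 3 had a P0 peak.

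Elements at the edge of the rule show how thin the boundary was. The member with the lowest percentile in any required list, on chromosome 8 from 125793705 to 125795925, had percentiles of 14.3 at P7, 0.044 at P21 and 3.71 at P56. The member on chromosome 4 from 57172304 to 57174594 stood at 0.098 in the P7 list, and that on chromosome 19 from 53154451 to 53156617 at 0.107 in the P21 list. Just outside, an element on chromosome 10 from 75372373 to 75379827 was kept out by a heart P56 peak at percentile 0.055. Another, on chromosome 6 from 55119248 to 55134489, had liver percentiles of 68.8, 79.2 and 90.4 at P7, P21 and P56 and was kept out by a heart P56 peak at percentile 0.063. The element on chromosome 10 from 33962449 to 33968175 was kept out by a liver E17.5 peak at percentile 0.078.

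Liver P0 was the only H3K27ac list that the rule did not use. A P0 peak was found in 162 of 1094 members, or 14.8% (exact Clopper-Pearson 95% interval 12.8 to 17.1, counting error only), against 19.7% of all elements. With each list limited to its best 12474 peaks the share was 145 of 418 (34.7%, interval 30.1 to 39.5), against 31.5% of all elements, so that the members' place below all elements did not hold at equal list length. In the full lists most members, 932, had no peak before P7. Among the 909 elements kept out by E17.5 alone, 536 (59.0%, interval 55.7 to 62.2) had a P0 peak, and among elements marked at P7, P21, P56 and a fetal stage 78.9% did. The P0 library was the shallowest of liver, and the part of depth in these shares was not tested. In whole liver, a smaller share of cells carrying the mark and less of the mark per cell cannot be told apart.

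The P0 peaks of members were narrow and low in their list. Their median width was 1718 bp, against 2763 bp for the whole P0 list, and the median P0 percentile of the 162 members was 19.2. Members with a P0 peak ranked higher afterwards: their median percentiles were 57.7, 45.7 and 57.6 at P7, P21 and P56, against 33.1, 31.3 and 44.3 for members without. Of the 17 members above percentile 75 in the P7 list, 12 had a P0 peak (70.6%, interval 44.0 to 89.7), while 9 of the 347 members below percentile 25 did (2.59%, interval 1.19 to 4.87). The P56 list gave a flatter relation, with 37 of 98 (37.8%) above percentile 75 and 16 of 215 (7.44%) below percentile 25. In each band of 25 percentiles of the P7, P21 and P56 lists, the share of members with a P0 peak was lower than that of all elements in the band, which was 96.7% above percentile 75 and 9.42% below percentile 25 of the P7 list. The rule barred fetal peaks, so this difference is a description.

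The heart-only and forebrain-only elements gained after birth were more often marked at P0 in their own tissue, 364 of 441 (82.5%, interval 78.7 to 86.0) in heart and 190 of 305 (62.3%, interval 56.6 to 67.8) in forebrain. Their P0 lists were longer, with 39133 and 30308 peaks against 19523 in liver. With those lists limited to their best 19523 peaks, a comparison chosen after seeing the data, the shares were 19.7% (interval 16.1 to 23.8) in heart and 32.1% (interval 26.9 to 37.7) in forebrain. Liver remained lowest with the P0 lists alone at equal length, its interval overlapped that of heart, and heart and forebrain exchanged places. The 3 sets were still chosen from full lists, which differed in length. With every list limited to the length of the shortest liver list, the liver share was 145 of 418 (34.7%). The matching heart and forebrain shares are not given here, so whether liver stays lowest with all lists at equal length was not tested. With 1 P0 library a tissue there is no replicate check of any of these shares.

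Each list was then left out of the rule in turn, and the elements chosen without it were looked up in it. A peak in the left-out list then played no part in the rule. That list still took part in merging peaks into elements, so the choice was not wholly independent of it. Of 1301 elements chosen without liver P56, 1094 (84.1%, interval 82.0 to 86.0) had a P56 peak, against 32.2% of all elements. Without liver P21 the share found in it was 1094 of 1633 (67.0%, interval 64.7 to 69.3), against 28.6% of all elements. Without liver P7 it was 1094 of 1937 (56.5%, interval 54.2 to 58.7), against 35.9%. An element marked at the 2 younger postnatal stages was thus usually still marked at P56, while 843 elements marked at P21 and P56 had no P7 peak.

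**Figure D3:**
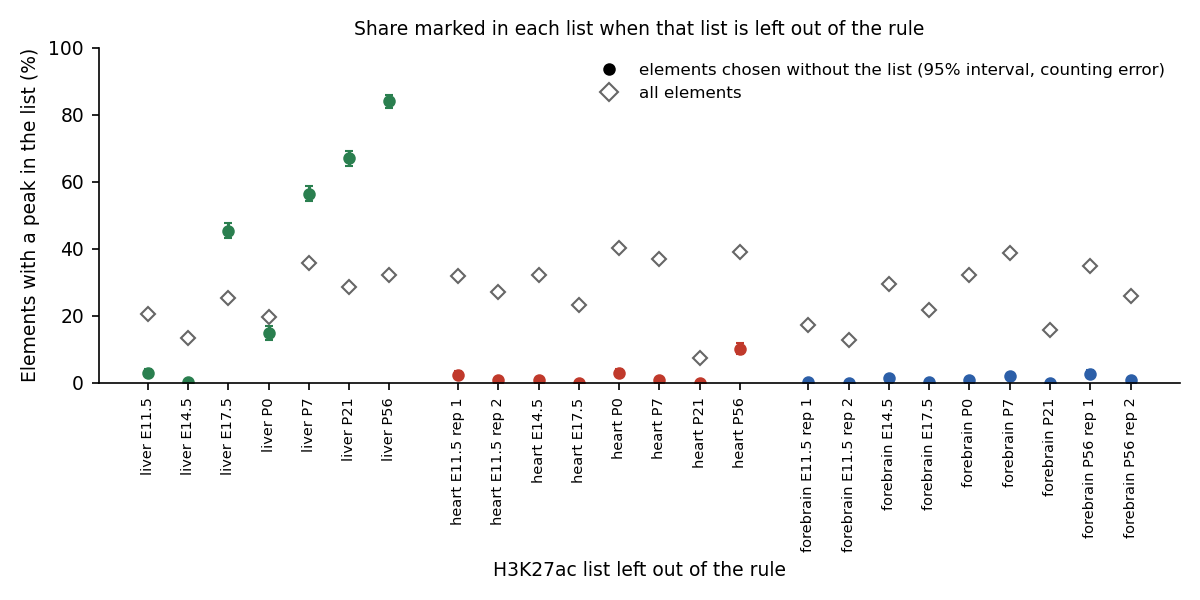
Share of elements with a peak in each H3K27ac list (vertical axis, percent) when that list is left out of the rule: filled points are the elements chosen without the list, with exact 95% intervals for counting error, and open diamonds are all elements. Liver P56, P21 and P7 gave 84.1%, 67.0% and 56.5%, liver E17.5 gave 45.4%, and the highest list of another tissue was heart P56 with 10.2%.

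Among the lists in which no peak was allowed, liver E17.5 gave by far the highest share. Of 2003 elements chosen without liver E17.5, 909 (45.4%, interval 43.2 to 47.6) had an E17.5 peak, against 25.4% of all elements. The median percentile of those E17.5 peaks was 34.6. With each list limited to its best 12474 peaks, the E17.5 share was 52.4% and the P7 share 41.2%, the opposite order to the full lists. Over all elements these shares were then 33.0% and 32.3%. Liver E11.5 gave 32 of 1126 (2.84%), against 20.6% of all elements, and liver E14.5 gave 2 of 1096 (0.182%), against 13.3%. Without the liver E17.5 library, the members would have numbered 2003 in place of 1094.

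In the other tissues the adult heart came nearest. Of 1218 elements chosen without heart P56, 124 (10.2%) had a heart P56 peak, against 39.1% of all elements, at a median percentile of 20.9. Heart P0 followed with 34 of 1128 (3.01%), against 40.3% of all elements. The other heart lists gave 0 to 26 elements and the forebrain lists 0 to 29, none above 2.58%. Heart P56 is 1 of 3 heart libraries whose track names carry the prefix of nearly all forebrain libraries, while all liver libraries carry another. The part of that difference was not tested. With all 8 heart lists left out at once, 1289 of 2383 elements (54.1%) had a heart peak, against 58.3% of all elements. With all 9 forebrain lists left out, 278 of 1372 (20.3%) had a forebrain peak, against 57.2%. Both shares were below those of all elements, that of heart only slightly. Each choice still barred the other tissue, so the 1641 elements marked in both heart and forebrain entered neither share. Elements gained in postnatal liver and marked in 1 of these tissues alone were more often marked in heart (1289) than in forebrain (278). The lists compared differ in number, length and library series.

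The heart P21 input list, which entered no rule, held peaks at most members. It overlapped 679 of 1094 members (62.1%, interval 59.1 to 65.0), against 23.05% of all elements. All elements include those without a liver peak, while this list had its highest Jaccard values with the postnatal liver lists. Its share over all elements marked in postnatal liver is not given here, so the excess is not shown to be particular to members. The list overlapped 0 of the 441 heart-only and 0 of the 305 forebrain-only elements gained after birth, which were chosen to have no liver peak. The share was higher among better ranked members, with 16 of 17 members (94.1%) above percentile 75 in the P7 list and 124 of 347 (35.7%) below percentile 25. By P56 rank it was 93 of 98 (94.9%) above percentile 75 and 96 of 215 (44.7%) below percentile 25. Members with a P0 peak were overlapped in 142 of 162 cases (87.7%), and those without in 537 of 932 (57.6%). The matching shares over all elements, by band or by P0 peak, are not given here. These differences are therefore not shown to be particular to members. The other input lists overlapped 0 members, apart from liver P0 input with 2. The library is labelled heart, a label that was not tested, so the word liver-only rests on the H3K27ac lists alone, and 415 members remain if that input list is counted as a heart list. The rule itself allowed no member a peak in the heart P21 H3K27ac list, which its track name gives as called with input.

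**Figure D4:**
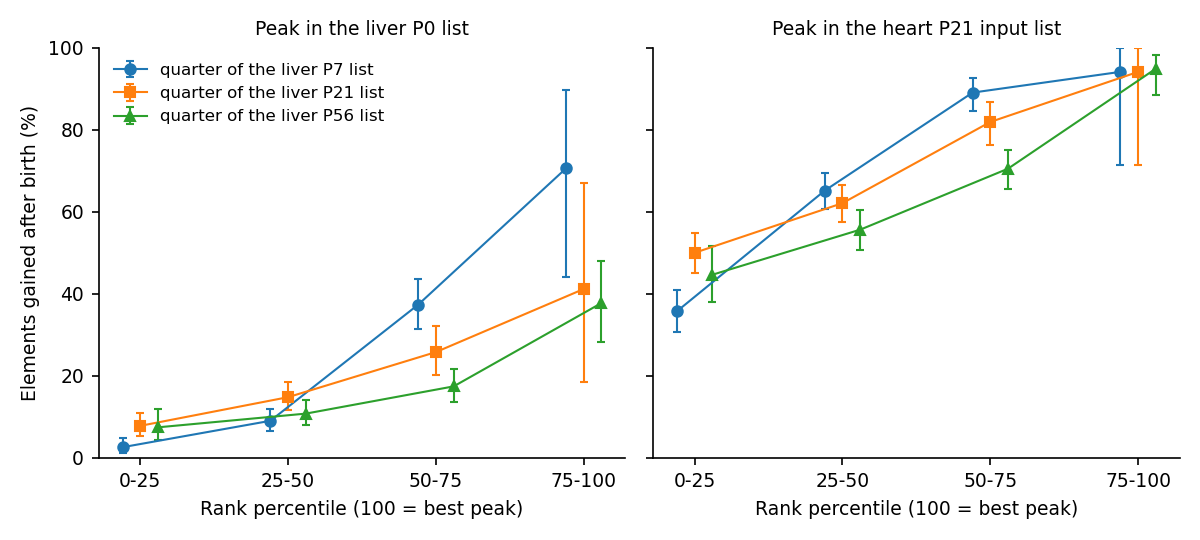
Share of members (vertical axis, percent) with a peak in the liver P0 list (left) and in the heart P21 input list (right), by bands of 25 in rank percentile in the liver P7, P21 and P56 lists (horizontal axis). Error bars are exact 95% intervals for counting error; both shares are higher at better ranks, reaching 70.6% and 94.1% above percentile 75 of the P7 list, which held 17 members.

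Fetal liver elements lay slightly nearer to members than to all elements, and other postnatal liver elements did so by more. Heart and forebrain elements lay farther. The nearest element with a fetal liver peak was a median of 17161 bp away from a member, against 20612 bp for all elements, and 811 members (74.1%) had such an element within 50 kb, against 68.8%. The distance was 40457 bp for heart-only and 43345 bp for forebrain-only elements gained after birth. Within 1 kb, 26 members (2.38%) had a fetal liver element, against 4.26% of all elements. A fetal peak that overlapped a member's peaks would have barred that element, so this low share follows in part from the rule. It was also not particular to fetal liver: an element of any kind lay within 1 kb of 9.32% of members, against 13.1% of all elements. The nearest element with a heart peak was a median of 10243.5 bp away, against 7462 bp for all elements, and that with a forebrain peak 12869 bp, against 8274.5 bp. For non-member elements marked in liver at P7, P21 and P56 the median was 17032 bp, against 27617 bp for all elements. Such an element lay within 50 kb of 73.1% of members, against 63.1% of all elements. Nearness was thus not particular to fetal liver elements.

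The marking of neighbours was compared between tissues over the lists. For each list, the share of members with a non-member element marked within 50 kb was divided by the same share over all elements. This ratio still depends on the length of the list. In liver this ratio was 1.02 at E11.5, 0.988 at E14.5, 1.10 at E17.5, 1.13 at P0, 1.10 at P7, 1.17 at P21 and 1.17 at P56. In heart it was 0.963 at E11.5, 0.942 at E14.5, 0.925 at E17.5, 0.943 at P0, 0.952 at P7, 0.595 at P21 and 0.959 at P56. In forebrain it lay between 0.867 and 0.913. The liver value was above the heart and forebrain values at each of the 7 stages, by the most at P21 for heart, whose list stood apart.

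The mean ratio over stages was 1.10 in liver and 0.897 in heart, a difference of 0.199. Against forebrain, with a mean of 0.890, the difference was 0.205. The size depended on the distance: within 20 kb the differences were 0.325 for heart and 0.299 for forebrain, and within 200 kb they were 0.0632 for heart, with liver higher at 6 of 7 stages, and 0.0610 for forebrain. A two-sided exact permutation test of the tissue labels within stages within 50 kb gave p = 0.0156 for each tissue, the smallest that the relabellings can give (Benjamini-Hochberg adjusted over both comparisons, 0.0156). Members were chosen for liver peaks and for the absence of heart and forebrain peaks in these same lists, so the test is not independent of the rule and is given as a description. Without P21 the differences were 0.137 for heart and 0.191 for forebrain (exact p = 0.0312 each, the smallest that 64 relabellings can give). With each list limited to its best 12474 peaks, the difference against heart was 0.219, with liver higher at 5 of 7 stages (exact permutation p = 0.0625). The track names carry 2 different prefixes, here called library series. At the 5 stages at which liver and heart belong to the same series the difference was 0.225, where 32 relabellings cannot give an exact p below the 0.0625 found, and at 4 of these without P21, chosen after seeing the data, it was 0.138 (exact p = 0.125, the smallest possible). The liver and forebrain lists tested belong to different series, and tissue and series cannot be told apart there. Forebrain P56 replicate 2, which shares the liver series, had a ratio of 0.862. The ratios of the heart-only elements gained after birth were highest in heart, with a mean of 1.13, and those of the forebrain-only elements in forebrain, with 1.11. A higher ratio in the own tissue was therefore found in each of the 3 gained sets, and is not particular to liver.

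**Figure D5:**
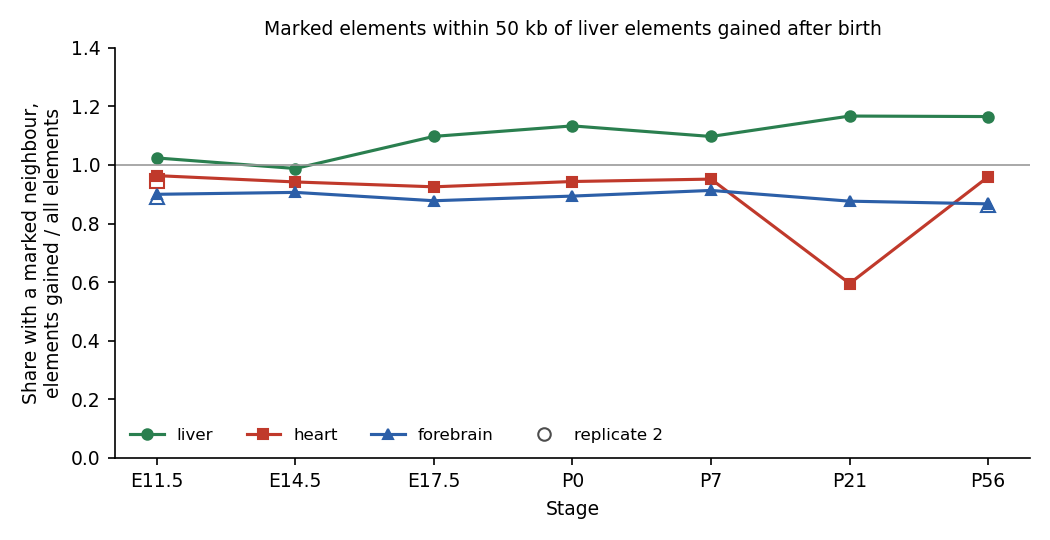
Share of members with a marked non-member element within 50 kb, divided by the same share over all elements (vertical axis), by stage (horizontal axis) and tissue; open symbols are replicate 2. Liver values lie between 0.988 and 1.17, above the heart and forebrain values at every stage, and the heart P21 list has the lowest value, 0.595.

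Members were scattered over the genome with a few local groups. Every autosome held between 29 and 83, chromosome 4 the most and chromosome 18 the fewest, and chromosome X held 29. Among autosomes the share of elements that were members ranged from 0.911% on chromosome 17 to 1.67% on chromosome 19. Another member lay within 50 kb of 212 members (19.4%), against 6.45% of all elements, and 906 windows of 100 kb held a single member. Only 7 windows held more than 2.

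The window with the most members ran from 96600001 to 96700000 on chromosome 3, where 4 of its 8 elements were members. They lay from 96623320 to 96625228, 96639092 to 96644102, 96648865 to 96653823 and 96677945 to 96680638. Their P56 percentiles were 15.6, 31.7, 58.5 and 54.1, and none had a P0 peak. A second window on chromosome 3, from 106300001 to 106400000, held 3 members among 4 elements: 106315893 to 106320132, 106328981 to 106333209 and 106367607 to 106370768. The first of these had percentiles of 56.2, 45.2 and 62.1 at P7, P21 and P56 and a P0 peak at 11.1. The P56 percentiles of the others were 69.2 and 29.7.

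The window from 91800001 to 91900000 on chromosome 8 held 3 members of 10 elements, and that from 118100001 to 118200000 on the same chromosome 3 of 6, with no fetal liver element in that at 118100001. The 3 members at 91800001 had P56 percentiles of 19.3, 47.4 and 49.0. In the window at 118100001 the members lay from 118104447 to 118111769, 118150418 to 118157538 and 118197288 to 118200667, with P56 percentiles of 44.6, 26.1 and 40.2. The window from 127200001 to 127300000 on chromosome 2 held 3 members of 9 elements, with P56 percentiles of 24.3, 19.1 and 15.2, beside 4 elements with a fetal liver peak. None of the leading 10 members stood in these 5 windows.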

How the data were processed

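Members, compared sets and tests were chosen with earlier results of these data known. The submitters' processing notes name BWA, MACS 1.4 and the build mm9, and no source used here gives their settings. The authors deposited 1 peak list per library, with positions and a rank but no score. A deposited table gives read counts and peak counts per library, by the authors; it writes P0 as P1 and P21 as P20, as the track names do, per the file headers.

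Peaks of the 24 H3K27ac lists sharing 1 bp were merged, and an element was marked in a list with a peak in it. Its percentile is that of its best peak. Intervals are exact Clopper-Pearson at 95% and cover counting error only. Tissue labels were permuted within stages, replicate 1 standing for groups of 2, with Benjamini-Hochberg adjustment over 2 tests at a threshold of 0.05; p-values measure only the spread between these libraries, which may be technical. Neighbours were counted within 50 kb. The rule and test were checked on simulated data. Elements were named by a fixed rule: the 10 of highest mean percentile, the 5 widest, 5 windows of 100 kb, and 3 on each side of the rule's edge. Alternatives were 1 kb merging, 1 kb trimming, equal list lengths, 50% cover, input peaks, lists left out, autosomes, distances of 20 and 200 kb, and library series. Gene lists, motifs, sequences and tissue marker genes were planned and not run, since no mm9 annotation or genome was used here. Software was scipy 1.17.1, pandas 2.3.3, numpy 2.4.6 and matplotlib 3.10.9 under Python 3.11.15.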

Additional observations from a re-analysis of the deposited data

Results flagged for a closer look

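An input list would usually hold few peaks, and the members were absent from nearly all input lists. In the heart P21 input list 679 of 1094 members (62.1%) had a peak, against 23.05% of all elements. In 22 of the other input lists 0 members had a peak. The heart P21 input overlap is a signal in data outside the comparisons, and is not shown to be particular to members. That list held 23762 peaks and had its highest Jaccard index, 0.685, with liver P21. In the liver P0 input list, which held 865 peaks, 2 members had a peak, or 0.183%, against 0.857% of all elements, so that members were below the level of all elements there. The other 22 lists were so short that 0 members carries little weight. Whether the heart P21 input label is right, and other causes, were not tested.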

How the results depend on the processing

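Of 85 alternatives, 64 kept a count or width within 1.5 times its main value, a share within its interval or a test on its side of 0.05; the causes of the rest were not tested. No alternative changed the sign of a neighbour difference. Members were chosen from these same lists, so the neighbour tests are not independent of the rule and the stable sign is a description. Within 1.5 times, members numbered 1489 with peaks trimmed to 1 kb, 1563 with 50% cover and 1633 without liver P21. With each list limited to its best 12474 peaks (the shortest liver list), members numbered 418, with a P0 peak in 34.7%, a heart P21 input peak in 97.4% and a median width of 6326.5 bp. Over all elements the P0 share was then 31.5% and the median width 4635 bp, and the input share is not given here. The shares found in left-out lists were then 52.4% in liver E17.5, 6.70% in heart P56, 88.4% in liver P56, 83.1% in liver P21 and 41.2% in liver P7, which puts E17.5 above P7. Over all elements the shares in these lists were 33.0%, 33.2%, 33.0%, 32.9% and 32.3%, in the same order. The neighbour difference against heart was then 0.219, with liver higher at 5 of 7 stages (exact permutation p = 0.0625). With peaks trimmed to 1 kb, the median width was 1279 bp, 65.3% of members had a heart P21 input peak, and left-out shares were 41.1% in liver E17.5, 76.8% in liver P56 and 47.9% in liver P7. The matching shares over all elements after trimming are not given here. Members numbered 415 with heart P21 input peaks barred, 162 with a P0 peak required, 1937 without liver P7 and 2003 without liver E17.5. Without 1 replicate of a group with 2 they numbered 1094 to 1123. Within 1 library series the neighbour difference against heart was 0.225 over 5 stages and 0.138 over 4 without P21. Forebrain had no such comparison, as 1 stage alone shared a series with liver. The neighbour comparison was paired by stage. By replicate number, no paired analysis was possible because the member counts come from no test and liver has no replicate numbers beyond 1. Low ranks, short fetal lists and the shallow P0 library limit what absence of a peak can show.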
